A study of Mus musculus with 4 samples.

Results

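The leukotriene and prostaglandin pathway genes analysed here are enzymes and receptors that make and sense the lipid mediators derived from arachidonic acid. They were picked by a pattern of gene symbols, which was chosen with earlier results of these data known. Of the 5807 genes in the authors' table of differentially expressed genes, 13 matched. Eosinophils had been sorted from the bone marrow and from lavage fluid of the pleural cavity in wild-type mice at day 2 after an intrapleural injection of LLC, a cell line from a mouse Lewis lung carcinoma. The mice were 6 to 8 weeks old, and 2 libraries were sequenced per tissue. The sample titles and the methods place both tissues in LLC-injected mice, although the study's text also calls the bone marrow cells naïve. The labels do not say whether the libraries came from separate or pooled mice. The sorting gates differed, since cells with CD11c or high Gr1 were left out of the pleural cavity gate and CD11b and F4/80 were required there, while the bone marrow gate rested on CD45, SiglecF and high side scatter after enrichment on F4/80.

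Arachidonic acid is released from membrane phospholipids by phospholipases A2 and then enters branching routes. In the lipoxygenase route, 5-lipoxygenase works with its activating protein FLAP to make leukotriene A4, which leukotriene A4 hydrolase turns into leukotriene B4, a neutrophil attractant, and which leukotriene C4 synthase joins to glutathione to give the cysteinyl leukotrienes. In the cyclooxygenase route, prostaglandin H2 is made first and is then converted by terminal synthases into prostaglandins or thromboxane. Eosinophils are known as a source of cysteinyl leukotrienes and of products of 15-lipoxygenase.

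The table holds, for each gene, the authors' mean of the estimated read counts in each tissue. These means were divided by the sum of all listed mean reads of the tissue, which was 15947438 for the pleural cavity and 11762543 for the bone marrow, to give reads per 1000000 listed reads (RPM). Fold changes and log2 ratios below set the pleural cavity value against the bone marrow value on that scale. Only these means were used, so no spread between libraries and no test could be given for any gene. Intervals are 95% intervals for the counting of the summed reads of 2 libraries, exact except where 2 ratios are compared, and they cover counting error only. The table holds genes retained by the authors' comparison, and no listed gene had a log2 ratio between -0.47 and 0.18. The differences below therefore describe genes already selected for differing.

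Markers of eosinophils are given first. SiglecF and F4/80 were used in the sorting of both tissues, so their genes are no independent check of the label. Siglecf and Ccr3, surface receptors of eosinophils, had 21371 and 67557 mean reads in the pleural cavity, against 7105.5 and 17178 in the bone marrow. Epx and Prg2, which encode granule proteins of the lineage, had 341.5 and 1482 mean reads in the pleural cavity against 139062 and 555404 in the bone marrow. Their levels were 552-fold and 508-fold lower in pleural cavity eosinophils, opposite to the other analysed markers of that list. Adgre1, the gene of F4/80, had 73917 against 11406 mean reads, and Gata1, a transcription factor of the lineage, had 7241 against 2477. The 2 remaining markers of that list, Il5ra and Cebpe, were not analysed here. All 13 neutrophil and granulocyte precursor markers were lower in pleural cavity eosinophils, with a summed level of 174 against 104440 RPM, and all 8 basophil and mast cell markers were lower too, at 93.4 against 1938. Fewer cells of a type and less RNA per cell cannot be told apart in such bulk libraries.

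Of the 13 pathway genes, 4 were higher in pleural cavity eosinophils by more than 2-fold, 5 were lower by more than 2-fold and 4 lay within 2-fold, all 4 on the higher side. Among all listed genes, 16.0% were higher and 50.5% lower by more than 2-fold. In that whole list 2468 genes were higher, 930 of them by more than 2-fold, and 3339 were lower, 2935 of them by more than 2-fold. Listed genes within 2-fold thus also lay mostly on the higher side, so the side of these 4 is no trait of the pathway. The lower share is raised by genes with few reads, so the count was repeated for genes with at least 1000 mean reads in either tissue. There, 3 of 10 pathway genes were higher and 3 were lower, against 20.1% and 21.8% of the 2618 listed genes at that level, which is close to the background in both directions for so few genes. The median log2 ratio was 0.61 over the 13 genes, -1.02 over all listed genes and 0.47 over those with at least 1000 mean reads. Without scaling for the listed totals the counts were 8 higher and 5 lower, against 30.5% and 43.2% of all listed genes, because Alox5, Alox5ap, Ptgs1 and Pla2g15 passed 2-fold as well. No pathway gene changed direction without scaling, with the median of ratios or without the marker genes in the totals. For lower genes this was fixed beforehand, since no listed negative log2 ratio was nearer 0 than -0.47 and the largest upward shift was 0.44.

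**Figure D1:**
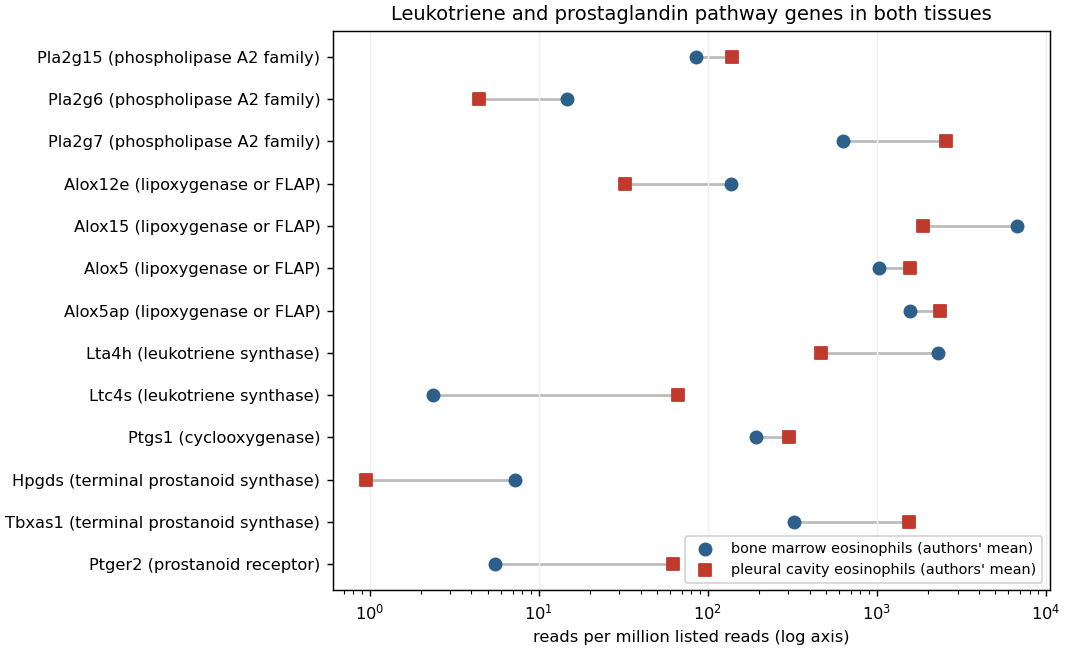
RPM, reads per 1000000 listed reads (log axis), of the 13 pathway genes, grouped by role, as the authors' mean in bone marrow eosinophils (circles) and in pleural cavity eosinophils (squares), joined by a line. Ltc4s, Ptger2, Tbxas1 and Pla2g7 lie furthest to the right of their bone marrow value, while Alox15, Lta4h, Alox12e, Pla2g6 and Hpgds lie to the left of it.

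Among the phospholipase A2 genes, Pla2g7 was by far the most abundant. It encodes the secreted platelet-activating factor acetylhydrolase, which breaks down platelet-activating factor and oxidised phospholipids rather than releasing arachidonic acid. Pla2g7 had 41034 mean reads in the pleural cavity against 7411.5 in the bone marrow, a 4.08-fold higher level (log2 ratio 2.03). On the GRCm38 assembly its gene spans chromosome 17 from 43568098 to 43612201 (plus strand). Pla2g15, the lysosomal phospholipase A2, had 2217.5 against 997.5 mean reads, a log2 ratio of 0.71. Pla2g6, a calcium-independent phospholipase A2, went the other way on few reads, with 70.7 against 174 mean reads and a log2 ratio of -1.73 (counting interval -2.03 to -1.45). Per kilobase of transcript, the level of Pla2g7 was 9.59 times that of Pla2g15 in bone marrow and 23.9 times in pleural cavity eosinophils. The macrophage markers, of which 5 of 10 were analysed, also had a higher summed level in pleural cavity eosinophils, at 1825 against 554 RPM, with 4 of the 5 higher. None of the 36 analysed markers of the 5 cell type lists was at 0 in either tissue. Their part in the value of Pla2g7 was not tested.

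The lipoxygenase genes were split. Alox15, whose product is the mouse 12/15-lipoxygenase, was the most abundant pathway gene of bone marrow eosinophils. It had 29945 mean reads in the pleural cavity against 79398 in the bone marrow, which is 1878 against 6750 RPM and a 3.59-fold lower level (log2 ratio -1.85). In bone marrow eosinophils it took 51.7% of all pathway reads (exact 95% counting interval 51.5 to 51.9), and in pleural cavity eosinophils 17.1% (16.9 to 17.2). Even so, Alox15 stayed abundant in pleural cavity eosinophils, where it ranked 89 among 5655 listed genes by reads per kilobase, after rank 26 in bone marrow eosinophils. The lower neutrophil and granulocyte precursor markers and the mostly higher macrophage markers are given above. Their part in the value of Alox15, and in those of Alox5 and Alox5ap below, was not tested.

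Alox15 lies on chromosome 11 from 70344152 to 70352031 on the minus strand and has 14 exons in its longest coding transcript. Its neighbour Alox12e, an epidermal-type lipoxygenase gene, lies on the same strand, with 21523 bases between the genes. Alox12e was lower as well, with 517 mean reads in the pleural cavity against 1611.5 in the bone marrow, a 4.23-fold lower level (log2 ratio -2.08). The neighbours thus differed far more in abundance than in their ratio between the tissues. Per kilobase, Alox15 was 49.5 times as abundant as Alox12e in bone marrow and 58.2 times in pleural cavity eosinophils. The mean reads of Alox15 were not multiples of 0.5, which happens when reads are divided between genes, although no 50-base stretch of its coding transcripts was found in a transcript of another gene.

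The genes of the 5-lipoxygenase complex were higher in pleural cavity eosinophils by less than 2-fold. Alox5, encoding 5-lipoxygenase, had 25006.5 against 12093 mean reads (log2 ratio 0.61). Alox5ap, encoding FLAP, had 37556 against 18503 mean reads (log2 ratio 0.58). Both partners had nearly the same proportion in either tissue, since the per-kilobase level of Alox5ap was 3.39 times that of Alox5 in the pleural cavity against 3.45 times in the bone marrow, a ratio of 0.982 between the tissues (95% counting interval 0.962 to 1.001). In contrast, the proportion of Alox5 to Alox15 differed 5.48-fold between the tissues (95% counting interval 5.38 to 5.58). Alox15 was 7.69 times as abundant as Alox5 per kilobase in bone marrow eosinophils and 1.40 times in pleural cavity eosinophils. Such proportions within a tissue do not depend on how the tissues were scaled to each other.

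**Figure D2:**
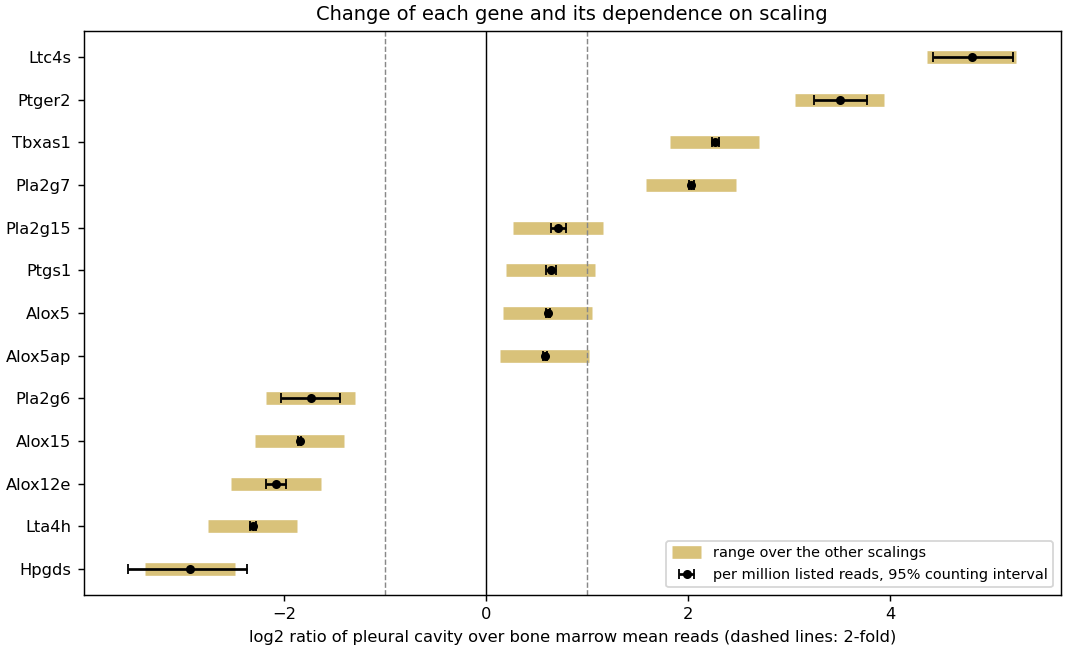
Log2 ratio of pleural cavity over bone marrow mean reads for each pathway gene (points, RPM) with its 95% counting interval (black bars) and the range over the other scalings of the tissues (yellow bars). No gene crosses 0 under any of these scalings, which no listed gene below 0 could have done. Pla2g15, Ptgs1, Alox5 and Alox5ap pass the dashed 2-fold line under one of them.

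At the branch point of leukotriene A4 both enzymes were analysed, and they differed in opposite directions. Ltc4s, encoding leukotriene C4 synthase, had 1063 mean reads in the pleural cavity against 28 in the bone marrow. This is a 28.0-fold higher level (counting interval 21.5 to 37.2) and a log2 ratio of 4.81, which ranked 28 from the top among the 5807 listed genes. Lta4h, encoding leukotriene A4 hydrolase, had 7408.5 mean reads in the pleural cavity against 27063 in the bone marrow, a 4.95-fold lower level (log2 ratio -2.31). Per kilobase of coding transcript, Lta4h exceeded Ltc4s 341-fold in bone marrow eosinophils but 2.46-fold in pleural cavity eosinophils. The proportion of Ltc4s to Lta4h was therefore 139 times higher in pleural cavity eosinophils (95% counting interval 106 to 181). Lta4h remained the more abundant of the pair in both tissues. Ltc4s spans chromosome 11 from 50236461 to 50238616 (minus strand) and shares stretches of 50 bases with the transcript of Gm26542, so its reads are less certain. The same holds for Alox5ap, Ptger2, Ptgs1, Tbxas1, Pla2g7 and Hpgds, which also share such stretches with transcripts of other genes. Lta4h spans chromosome 10 from 93453411 to 93484875 (plus strand). The lower level of Lta4h went together with the neutrophil and granulocyte precursor markers given above, whose part in it was not tested. Basophils and mast cells are also known to use Ltc4s. Their 8 markers were all lower in pleural cavity eosinophils, with log2 ratios from -10.16 to -2.93. The macrophage markers had a higher summed level there, at 1825 against 554 RPM, with 4 of the 5 analysed higher and 1 lower. The part of either list in the value of Ltc4s was not tested.

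The start regions of both genes are shown because they stand at one branch point and differed in opposite directions, together with those of Tbxas1 and Pla2g7, the most abundant genes over 2-fold higher. Each sequence runs from 250 bases before to 50 bases after the RefSeq start on GRCm38.p6, in the direction of the gene. Pla2g7 and Tbxas1 were taken by a fixed rule on reads and direction, as was Lta4h, and Ltc4s was added after its values were seen. Capitals mark a match to TTC and GAA with 4 bases between them, the pattern known for STAT6.
Ltc4s, chr11:50238483-50238782, minus strand: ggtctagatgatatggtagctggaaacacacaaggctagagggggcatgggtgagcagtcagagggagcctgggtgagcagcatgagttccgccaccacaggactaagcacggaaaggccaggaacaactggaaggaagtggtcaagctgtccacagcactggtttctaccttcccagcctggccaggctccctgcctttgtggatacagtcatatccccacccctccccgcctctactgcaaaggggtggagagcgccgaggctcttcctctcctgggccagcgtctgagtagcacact
Lta4h, chr10:93453146-93453445, plus strand: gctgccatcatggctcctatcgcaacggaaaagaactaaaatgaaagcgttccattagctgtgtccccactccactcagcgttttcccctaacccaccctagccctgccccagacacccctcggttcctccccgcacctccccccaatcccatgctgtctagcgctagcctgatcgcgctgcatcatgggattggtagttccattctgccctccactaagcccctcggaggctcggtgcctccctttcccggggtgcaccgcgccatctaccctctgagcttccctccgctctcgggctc
Tbxas1, chr6:38918736-38919035, plus strand: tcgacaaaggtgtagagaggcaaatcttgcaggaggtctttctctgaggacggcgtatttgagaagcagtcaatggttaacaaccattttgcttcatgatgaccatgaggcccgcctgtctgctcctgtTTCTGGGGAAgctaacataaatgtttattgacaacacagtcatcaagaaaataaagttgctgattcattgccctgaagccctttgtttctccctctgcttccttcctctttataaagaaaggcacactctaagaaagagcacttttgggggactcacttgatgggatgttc
Pla2g7, chr17:43568201-43568500, plus strand: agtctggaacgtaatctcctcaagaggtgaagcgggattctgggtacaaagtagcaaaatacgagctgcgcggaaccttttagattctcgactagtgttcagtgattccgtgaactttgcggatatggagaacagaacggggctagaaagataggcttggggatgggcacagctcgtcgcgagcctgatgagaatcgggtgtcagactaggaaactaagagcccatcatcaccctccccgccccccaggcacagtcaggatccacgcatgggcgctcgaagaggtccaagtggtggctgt
Of the 4 regions, that of Tbxas1 held the STAT6 pattern, beginning at position -121 from the start. That RefSeq start lies inside the longer span that GENCODE gives Tbxas1, from 38875404 to 39084585 on chromosome 6. The whole region shown for Pla2g7 also lies inside its GENCODE span, from 43568098 to 43612201 on chromosome 17. Over the 11 pathway genes with a start region, 1 held the STAT6 pattern, against 6.95% of 32851 RefSeq start regions of the same length. The GATA pattern AGATAA, searched on both strands like the other, was found in 1 of the 11, that of Pla2g6, against 11.2% of all. Alox15 and Alox5ap had no entry.

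The cyclooxygenase route was represented by Ptgs1, Tbxas1 and Hpgds. Ptgs1, encoding the constitutive cyclooxygenase-1, had 4819 mean reads in the pleural cavity against 2283 in the bone marrow, a log2 ratio of 0.64. Tbxas1, encoding thromboxane A synthase, had 24843 against 3810 mean reads, a 4.81-fold higher level (log2 ratio 2.27). Hpgds, encoding the haematopoietic prostaglandin D synthase, had 15.1 against 84.7 mean reads, a 7.62-fold lower level (counting interval 5.16 to 11.7). The terminal synthases that share prostaglandin H2 as substrate therefore stood far apart in both tissues. Per kilobase, Tbxas1 was 78.6 times as abundant as Hpgds in bone marrow eosinophils and 2880 times in pleural cavity eosinophils.

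By reads per kilobase, Tbxas1 ranked 88 among 5655 listed genes in the pleural cavity against 464 in the bone marrow. Relative to Ptgs1, which supplies its substrate, it was 2.40 times as abundant per kilobase in bone marrow and 7.43 times in pleural cavity eosinophils. Platelets and macrophages are known for thromboxane synthesis. Of 6 platelet and megakaryocyte markers 4 were analysed, with summed levels of 350 RPM in the pleural cavity against 425 in the bone marrow, 2 higher and 2 lower. Among these, chosen after their values were seen, Pf4 had 1069.5 mean reads in the pleural cavity against 62 in the bone marrow, while Itga2b had 587.5 and 2640.5. Together with the higher macrophage markers given for Pla2g7, their part in the value of Tbxas1 was not tested. Hpgds went with the lower basophil and mast cell markers, and their part was not tested either.

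One receptor gene that matches the pattern was among the analysed genes. Ptger2, encoding the prostaglandin E2 receptor EP2, had 988 mean reads in the pleural cavity against 64.5 in the bone marrow. Its level was 11.3-fold higher in pleural cavity eosinophils (counting interval 9.45 to 13.6), a log2 ratio of 3.50 that ranked 85 from the top among all listed genes. Ptger2 lies on chromosome 14 from 44988195 to 45003820 on the plus strand and has 2 exons. In bone marrow eosinophils it had the lowest level per kilobase of all 13 genes, at 1.49 RPM per kilobase. In pleural cavity eosinophils it took position 10 at 16.8. Ptger2 shares stretches of 50 bases with the transcripts of Gm17173 and Gm49364, so its reads are less certain. The macrophage markers given for Pla2g7 were mostly higher too, and their part in the value of Ptger2 was not tested.

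**Figure D3:**
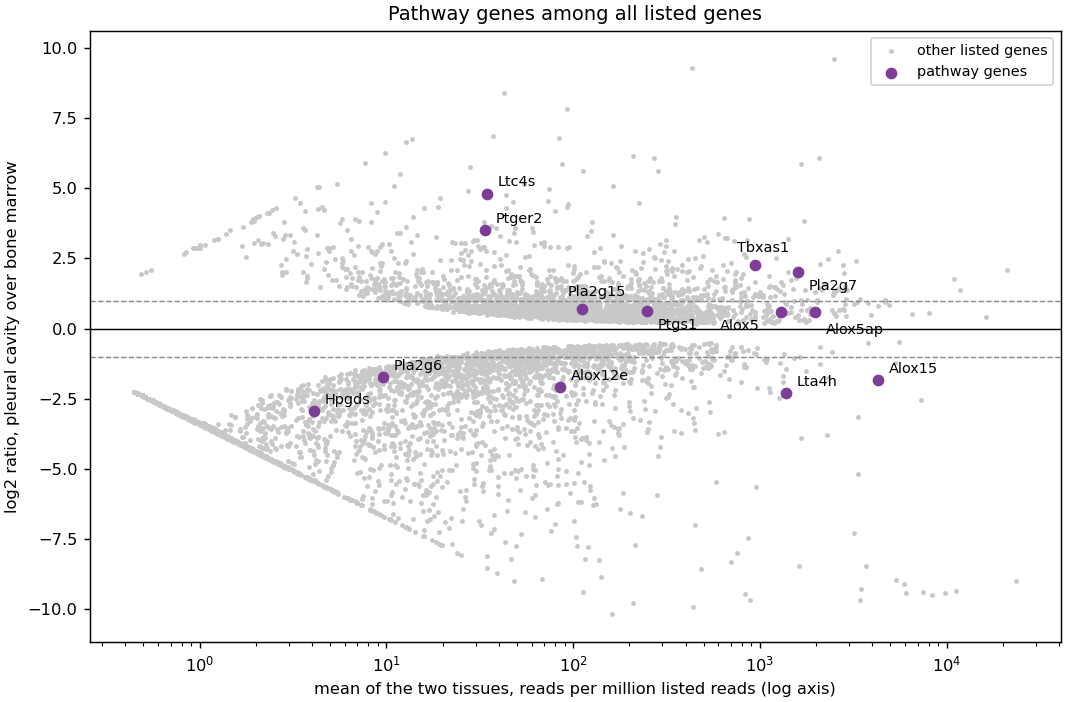
Log2 ratio of pleural cavity over bone marrow mean reads against the mean level of both tissues in RPM (log axis), for the 13 pathway genes (large points) and the other listed genes (small points). Ltc4s and Ptger2 lie high among genes of their level, Alox15 and Lta4h are abundant genes below the 2-fold line, and the band near 0 is empty of listed genes.

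Ordered by RPM per kilobase of transcript, the pathway genes had another profile in each tissue. In bone marrow eosinophils the order began with Alox15 at 2802, followed by Alox5ap at 1257 and Lta4h at 1134, and then by Alox5 at 364 and Pla2g7 at 300.5. In pleural cavity eosinophils Alox5ap came first at 1882 and Pla2g7 second at 1227. Tbxas1 at 783 and Alox15 at 779 were next and nearly equal, before Alox5 at 556 and Lta4h at 229. Ltc4s moved from position 11 at 3.32 to position 8 at 93.1, next to Ptgs1 at 105. Hpgds and Pla2g6 held positions 12 and 10 in bone marrow and positions 13 and 12 in pleural cavity eosinophils, with no more than 4.39 in either tissue. Without values per library it cannot be said which neighbours in these orders differ beyond their spread. Summed, the pathway genes took 1.31% of listed reads in bone marrow and 1.10% in pleural cavity eosinophils.

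By role, the summed level of the lipoxygenase and FLAP genes was 5833 RPM in the pleural cavity against 9488 in the bone marrow, and that of the leukotriene synthases was 531 against 2303. The phospholipase genes had 2717 against 730 RPM, and the terminal prostanoid synthases 1559 against 331. The last 3 sums rest mostly on 1 gene each. These were Lta4h with 465 against 2301 RPM, Pla2g7 with 2573 against 630 and Tbxas1 with 1558 against 324. Alox5, Alox5ap, Ltc4s, Pla2g6 and Hpgds went against the sum of their role. Of all pathway reads, Pla2g7 took 23.4% in the pleural cavity against 4.83% in the bone marrow, and Tbxas1 took 14.2% and 2.48%. Lta4h went the other way with 4.22% and 17.6%.

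A further 43 symbols of the mouse annotation match the same pattern and were not analysed here, which gives them no direction. Among them are Pla2g4a, the cytosolic phospholipase A2 that is the main source of free arachidonic acid in leukocytes, Ptgs2, the inducible cyclooxygenase-2, and Ptgdr2, the prostaglandin D2 receptor CRTH2. None of the 4 leukotriene receptor genes of the annotation, Cysltr1, Cysltr2, Ltb4r1 and Ltb4r2, was analysed. Of the 7 prostanoid receptor genes that match the pattern, 6 were not analysed. The prostaglandin E synthases Ptges, Ptges2 and Ptges3 were not analysed either, so the enzymes that make the ligand of EP2 have no value beside that of Ptger2.

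Other genes of supply, metabolism and signalling came from a list of 47 outside the symbol pattern, of which 22 were analysed. Of these 22, 7 were higher and 9 lower by more than 2-fold, beside the 16.0% and 50.5% of all listed genes. Hpgd and Ptgr1 break down prostaglandins and leukotriene B4 by oxidation and reduction. Hpgd had 4 mean reads in the pleural cavity against 195 in the bone marrow, a 66.1-fold lower level (counting interval 33.2 to 154). Ptgr1 had 117.5 against 1501.5 mean reads, a log2 ratio of -4.11. Mgst2, a microsomal glutathione transferase that can also form leukotriene C4, was lower with 46 against 1285.5 mean reads (log2 ratio -5.24), opposite to Ltc4s. Dpep2, a dipeptidase that turns leukotriene D4 into leukotriene E4, was higher with 716 against 64 mean reads (log2 ratio 3.04).

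The receptors on that list were divided. Ptafr, the receptor of platelet-activating factor, had 22874 mean reads in the pleural cavity against 2871 in the bone marrow, a 5.88-fold higher level, from means that were not multiples of 0.5. Gpr132, a receptor for oxidised fatty acids, had 2470.5 against 638.5 mean reads, a 2.85-fold higher level. Fpr2, which binds lipoxin A4 and formyl peptides, had 42.5 against 208.5 mean reads, a 6.65-fold lower level. Ptgfr, the prostaglandin F receptor, had 0 against 14 mean reads, at least 6.33-fold lower when 3 mean reads are taken as the floor. Ptgis, encoding prostacyclin synthase, had 71.5 mean reads in the pleural cavity against 1.5 in the bone marrow, so few that the ratio has a counting interval from 11.8 to 172. The log2 ratio of Daglb, a diacylglycerol lipase, was 0.37 and turned negative when the tissues were scaled by the median of ratios. The other 21 genes kept their sign, which for those below 0 was fixed beforehand by the authors' selection.

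**Figure D4:**
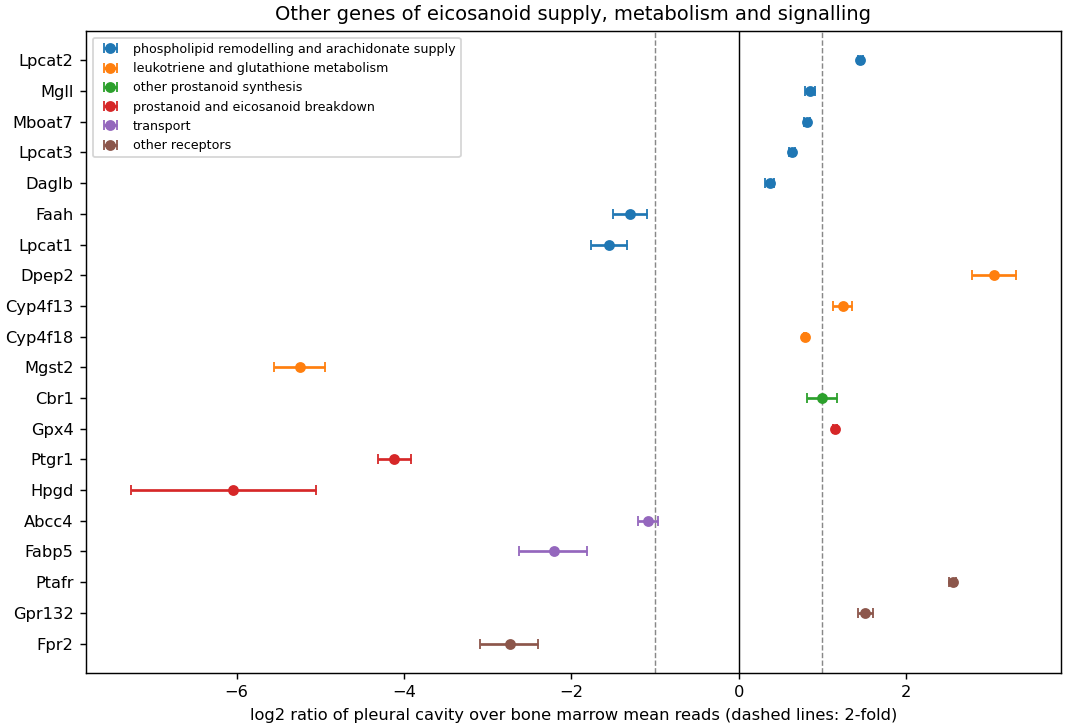
Log2 ratio of pleural cavity over bone marrow mean reads for 20 genes of eicosanoid supply, metabolism and signalling outside the symbol pattern, coloured by role, with 95% counting intervals (bars). Hpgd, Mgst2 and Ptgr1 lie furthest below 0 and Dpep2 and Ptafr furthest above, and Ptgis and Ptgfr are left out because one of their means was 1.5 or 0 reads.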

How the data were processed

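Sorted bone marrow and pleural cavity eosinophils were sequenced as paired reads, with 2 libraries per tissue grouped by their titles. After trimming with SOAPnuke, the authors used HISAT2 2.1.0 against GRCm38, then Bowtie2 2.2.5 for mapping and RSEM 1.2.8 for estimated counts. The labels also name StringTie 1.0.4 and DESeq. The deposited values are RSEM's estimated counts, as 1 authors' mean per tissue with no scaling for depth. The deposited table also holds columns of the authors' own comparison, a log2 fold change, a p-value and a q-value per gene, none of which was used. The table had 0 unused columns of values per sample, and the depth of each library was unknown.

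Members matched a pattern of gene symbols. The members and gene lists were chosen with earlier results of these data known. Named genes were all 13 members, the 5 genes with the largest ratio among those of the wider list with at least 100 mean reads, and its receptors. Ratios were taken after division by the listed total, with 3 mean reads as the floor for smaller means. Ptgis, Daglb, Lpcat1, Lpcat2 and Cyp4f18 were named after their values were seen. Counting intervals came from the summed reads. They were exact conditional binomial for a ratio and exact binomial for a share. For a ratio of ratios, a normal approximation on the log scale was used. Only the intervals for a ratio were tried on simulated data, which held counting error and no further spread between libraries. The tests on counts for values per library were not made, since the table holds means. Transcript lengths (the longest coding transcript), coordinates and shared stretches of 50 bases came from GENCODE M21 on GRCm38, an earlier release than the authors' on the same assembly, and 5655 listed genes had a length. Strandedness was not given in the sources used here, so overlapping genes cannot be separated. For 7 members, Alox5ap, Ltc4s, Ptger2, Ptgs1, Tbxas1, Pla2g7 and Hpgds, a 50-base stretch occurred in another gene's transcript. Such stretches were searched for members only, so no share over all listed genes stands beside that count. The means of Alox15, Ptgs1, Pla2g6 and Hpgds were not within 0.01 of whole reads over 2 libraries. That is 30.8% of the members, close to the 25.6% of all listed genes. The values of all these genes are less certain. Alternatives covered the scaling, the fold threshold, the floor, a pseudocount and filters. Software was matplotlib 3.10.9, scipy 1.17.1, numpy 2.4.6, pandas 2.3.3 and Python 3.11.15.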

Additional observations from a re-analysis of the deposited data

How the results depend on the processing

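No paired analysis was possible because the table holds 1 mean per tissue, and for the same reason no library could be left out. All 13 pathway genes kept their direction under the 3 other scalings tried, which are named next. Relative to the listed total, all log2 ratios shifted by 0.44 without scaling, by -0.44 with the median of ratios (over genes whose means both reached 1000 reads), and by -0.25 when the marker genes were left out of the totals, an alternative chosen after seeing the data. The median over the members was 1.05, 0.17 and 0.36 under these settings. No listed gene with a negative log2 ratio could have turned, since none lay nearer 0 than -0.47 and the shift up was 0.44. Of the higher genes, only those with a log2 ratio under 0.44 could turn. The kept directions are therefore a weak check. Without scaling, 8 members were over 2-fold higher, as given above. A threshold of 1.5-fold gave 7 higher and 5 lower, against 29.3% and 57.1% of all listed genes. A threshold of 4-fold gave 4 higher and 3 lower (Lta4h, Alox12e and Hpgds), against 5.29% and 36.7%. Among the 9 members with whole reads in both means, 2 were over 2-fold lower, Lta4h and Alox12e, and the median was 0.71, since the setting leaves out Alox15, Pla2g6, Hpgds and Ptgs1. The pseudocount of 1 read, the floor of 10 reads and the filter at 10 mean reads changed none of the counts of members. Depth limits Hpgds, Pla2g6 and the bone marrow values of Ltc4s and Ptger2 most, since those rest on the fewest reads.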

Other observations

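Genes of platelet-activating factor, a phospholipid mediator outside the arachidonic acid routes, were found on the lists used here and were put together after their values were seen. Lpcat2, encoding an enzyme that makes platelet-activating factor in activated leukocytes, had 20202 mean reads in the pleural cavity against 5438.5 in the bone marrow, a 2.74-fold higher level. The receptor gene Ptafr and the gene of the degrading enzyme, Pla2g7, were higher as well, as given above. Lpcat1, a related acyltransferase, had 128.5 against 277 mean reads, a 2.92-fold lower level. The gene with the most reads on the wider list was Cyp4f18, whose product is known to hydroxylate leukotriene B4, with 87024 mean reads in the pleural cavity against 37032 in the bone marrow (log2 ratio 0.79).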
